A study of Homo sapiens with 12 samples.

Results

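The extracellular matrix genes described here are 38 laminin, basement membrane, elastic fibre, proteoglycan and adhesive glycoprotein genes, given as a list of symbols and found through their gene identifiers among the 60660 identifiers of a gene count table. All 38 were found, and 33 had enough counts to be tested. RNA was sequenced from 12 libraries of cells labelled HS578T, an established triple-negative breast cancer line. The 4 groups of 3 libraries were 17p-deleted cells in 1 µM doxorubicin, 17p-deleted cells in DMSO, 17p-intact cells in 170 nM doxorubicin and 17p-intact cells in DMSO, each for 48 h. The labels name the deleted cells 17PKO and describe a heterozygous loss of the short arm of chromosome 17 (17p), and they name the intact cells Cas9 with the genotype WT. Whether either population is a clone or a pool is not given in the sources used here. Doxorubicin is an anthracycline that poisons topoisomerase II, and its dose differed between the genotypes, so genotype and dose cannot be told apart in any comparison between treated groups. Other differences between the cell populations likewise cannot be told apart from the deletion.

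Laminins are trimers of 1 alpha, 1 beta and 1 gamma chain that cells secrete and anchor through integrins and dystroglycan. They polymerise into basement membranes, where nidogens and perlecan link them to collagen IV. Around connective tissue cells, fibronectin and fibrillin form fibres that carry fibulins, elastin and latent TGF-beta binding proteins, while proteoglycans such as versican and matricellular proteins such as tenascin-C, SPARC and thrombospondins change how cells adhere to them. In bulk RNA, fewer cells making a transcript and less of it per cell cannot be told apart.

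Library totals were 66150539 to 99142099 counts, and a floor of 3 counts for undetected genes was worth 0.0305 to 0.0444 CPM (counts per 1000000). Such floors cover counting error only. The mitochondrial share of counts was 2.61% to 3.57% in 10 libraries, 6.90% in deleted DMSO replicate 2 and 5.54% in treated intact replicate 1. Transcripts specific to single chromosomes did not match the line's recorded karyotype in 12 of 12 libraries, so the cells are called here only by their labels. The median log2 fold change of 399 genes on 17p, deleted over intact, was -0.12 in DMSO, against 0.04 for the other genes, a difference of -0.17. In doxorubicin it was -0.04, against 0.02 for the other genes, a difference of -0.06. Whether the cells carry the labelled loss was not tested, and deletion here names the label. None of the 38 matrix genes lies on 17p. Among 7 mesenchymal markers, which include VIM and ZEB1, only PDGFRA averaged under 1 CPM, while all 5 endothelial and all 6 blood markers did in all 4 groups. Since no label says that replicates were separate cultures, the spread behind every p-value may be technical, being only that between these samples.

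In DMSO, deleted cells had more of the RNA of fibrillins, LTBP2, FBLN5, EFEMP1, LAMA1 and THBS2 than intact cells and less of that of NID2, VCAN, FBLN2 and TNC. Of the 38 genes, 10 were higher and 11 lower at an adjusted p under 0.05 in edgeR's quasi-likelihood test, where 18.8% of all 21803 genes tested were called higher and 16.2% lower. The genes called higher were 26.3% of the list and those called lower 28.9%, with the 5 untested genes counted in the list. Here and below, shares of a list count its untested genes too, while shares of all genes count only tested ones. The median log2 fold change of the 33 tested members was 0.11, against 0.04 for all genes. Fold changes past 2-fold were found for 6 of the higher genes and 4 of the lower ones. Over all 21803 genes tested, 1243 higher and 1408 lower genes were past 2-fold. The 21 calls came from every role: 5 of 9 laminin chains, 1 of 3 linkers, 8 of 14 elastic fibre genes, 2 of 5 proteoglycans and 5 of 7 adhesive genes.

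In deleted cells FBLN2, VCAN, THBS2, LAMA3, LTBP3, LAMB3, NID2 and LAMC1 were higher in 1 µM doxorubicin than in DMSO, and LAMA4, EFEMP1, TNC, LAMB1, SPARC, SPOCK1, LTBP1, TGFBI and NID1 were lower. The fold was largest for VCAN, 11.7-fold higher, and FBLN2, 8.94-fold higher, both from few counts. These 8 higher and 9 lower members stood against 17.5% of all genes tested called higher and 13.1% called lower; they made up 21.1% and 23.7% of the list. The median log2 fold change of the members was -0.16, and that of all genes -0.02.

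With 170 nM doxorubicin no member passed the threshold in intact cells, where 0.0275% of all genes tested were called higher and 0.0321% lower. At an unadjusted p under 0.05 in edgeR's test, 6 members were lower and 0 higher, and THBS2, TNC and SPARC had the lowest p. Of all genes tested, 11.5% had such a p, in either direction. DESeq2 called these 3 genes lower, while limma-voom called 0. On the log2 scale the change was negative for 24 of the 33 members and positive for 9, with a median of -0.08 against 0.01 for all genes.

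Between treated deleted cells and treated intact cells, 15 members were higher and 10 lower, with 25.9% and 21.9% of all genes tested called in these directions. The genes called higher were 39.5% of the list and those called lower 26.3%. The comparisons of genotypes in doxorubicin and in DMSO share no library, but both come from the same fit and the same cell populations. Of the 10 members higher in DMSO, 8 were among the 15 higher in doxorubicin, and 7 of the 11 members lower in DMSO were among the 10 lower in doxorubicin. How many of all genes were called alike in both is not given here, so these counts show nothing particular to the members. FBLN2 and LAMA3 were lower in DMSO and higher in doxorubicin.

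The doxorubicin effect itself, 1 µM in deleted cells less 170 nM in intact cells, differed for 12 members. It was more positive for 7, where 10.3% of all genes tested were called, and more negative for 5, where 6.74% were. Among these 12, the largest differences were those of VCAN, FBLN2 and THBS2 on the positive side and LAMA4, LAMB1 and EFEMP1 on the negative side.

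**Figure D1:**
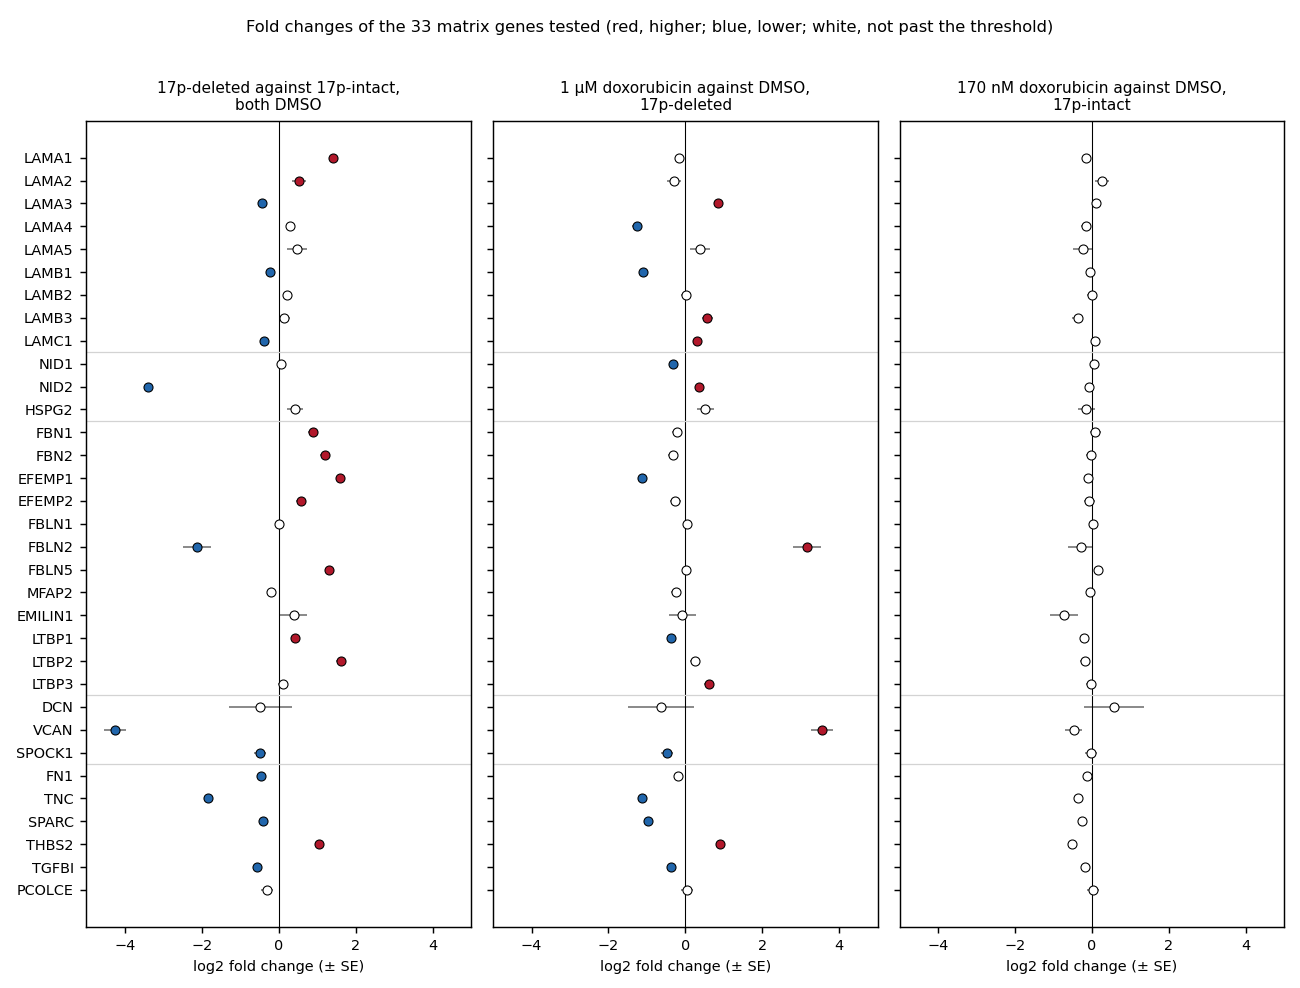
Log2 fold changes (x axis, points with bars of 1 SE) of the 33 tested matrix genes, in rows by role, for deleted against intact cells in DMSO, 1 µM doxorubicin against DMSO in deleted cells, and 170 nM doxorubicin against DMSO in intact cells. Filled points passed an adjusted p of 0.05, and 21, 17 and 0 members did so in the 3 panels.

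Promoter windows of 300 bases, from 250 before to 50 after a start site, were available from RefSeq (GRCh38.p14) for 30 of the 38 members. ELN, EFEMP1, EMILIN1, MFAP5, LUM, LAMA1, SPOCK1 and DCN had none. The 6 windows shown were chosen with the values known. NID2, TNC and VCAN were lower and THBS2 higher in deleted cells in DMSO, and LAMA3 and LAMB3, a chain pair of epithelial laminin, were higher with doxorubicin in deleted cells. The windows run 5′ to 3′ along each gene's own strand. They lie at chr14:52069010-52069309 on the minus strand, chr9:115118108-115118407 on the minus strand, chr5:83471494-83471793 on the plus strand, chr6:169253797-169254096 on the minus strand, chr18:23872770-23873069 on the plus strand and chr1:209651325-209651624 on the minus strand, the last being 1 of 3 windows listed for LAMB3 and the only one of them that holds TGANTCA.
NID2: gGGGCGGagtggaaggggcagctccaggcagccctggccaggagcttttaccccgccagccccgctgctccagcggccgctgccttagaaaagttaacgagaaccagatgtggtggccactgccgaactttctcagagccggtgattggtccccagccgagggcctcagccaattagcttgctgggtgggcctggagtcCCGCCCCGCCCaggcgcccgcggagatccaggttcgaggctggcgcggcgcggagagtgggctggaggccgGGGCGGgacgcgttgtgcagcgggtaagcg
TNC: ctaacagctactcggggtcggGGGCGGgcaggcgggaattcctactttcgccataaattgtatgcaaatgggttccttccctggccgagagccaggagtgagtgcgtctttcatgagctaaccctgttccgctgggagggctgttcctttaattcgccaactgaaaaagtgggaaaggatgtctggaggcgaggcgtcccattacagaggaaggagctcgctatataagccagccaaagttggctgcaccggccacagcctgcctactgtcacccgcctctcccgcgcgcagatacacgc
VCAN: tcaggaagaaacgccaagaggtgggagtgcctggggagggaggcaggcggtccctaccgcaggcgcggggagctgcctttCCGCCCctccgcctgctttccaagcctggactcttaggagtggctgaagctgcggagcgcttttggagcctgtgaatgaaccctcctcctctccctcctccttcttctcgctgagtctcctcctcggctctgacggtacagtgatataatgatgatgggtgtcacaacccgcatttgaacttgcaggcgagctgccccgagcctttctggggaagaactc
THBS2: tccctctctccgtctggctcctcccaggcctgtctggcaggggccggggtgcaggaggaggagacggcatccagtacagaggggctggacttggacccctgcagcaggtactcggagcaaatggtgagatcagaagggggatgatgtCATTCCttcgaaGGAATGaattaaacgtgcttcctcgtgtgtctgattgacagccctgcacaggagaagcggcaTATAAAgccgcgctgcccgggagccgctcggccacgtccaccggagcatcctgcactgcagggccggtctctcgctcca
LAMA3: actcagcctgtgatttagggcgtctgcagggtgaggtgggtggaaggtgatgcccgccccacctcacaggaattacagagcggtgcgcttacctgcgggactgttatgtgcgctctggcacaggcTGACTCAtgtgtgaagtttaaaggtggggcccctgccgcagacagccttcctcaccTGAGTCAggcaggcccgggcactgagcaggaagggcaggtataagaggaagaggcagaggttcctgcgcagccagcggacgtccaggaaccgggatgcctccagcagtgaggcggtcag
LAMB3: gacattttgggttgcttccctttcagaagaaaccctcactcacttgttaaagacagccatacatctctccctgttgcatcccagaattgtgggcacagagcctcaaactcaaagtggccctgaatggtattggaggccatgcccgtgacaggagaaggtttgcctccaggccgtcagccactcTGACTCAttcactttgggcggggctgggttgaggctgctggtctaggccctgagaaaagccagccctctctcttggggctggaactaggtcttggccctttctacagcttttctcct
Capitals mark GGGCGG, the GC box, in NID2, TNC and VCAN, either strand. In THBS2 they mark TATAAA, the TATA box, and GGAATG, the core of sites for TEAD factors. In LAMA3 and LAMB3 they mark TGANTCA, the core of AP-1 sites, and the 1 GC box in each of these windows is left in lower case.

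The NID2 window held the GC box at 4 places and 25 CG dinucleotides, where the median window of all genes held 14. GGGCGG was present in 45.0% of 35116 windows, and in 27 of the 38 windows of the 30 members, for 23 members. For each other motif, member windows with it and members with it were equal in number. The THBS2 window had TATAAA once and GGAATG at 2 places, motifs found in 4049 and 4928 of all windows and for 3 and 4 members. TGANTCA lay at 2 places in the LAMA3 window and at 1 in the LAMB3 window; 7.7% of all windows and 4 members (LAMA3, LAMB3, MFAP2 and POSTN) had it. CACGTG, the E-box, was present for 1 member, FBN2, and in 7.3% of all windows. Motifs were searched on both strands, TGANTCA and CACGTG each being counted once per place. These matches describe letters in the windows and not bound sites.

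Laminin alpha chains moved separately. LAMA1, the alpha chain of the laminin of early embryonic basement membranes (chr18:6941744-7117814, GENCODE 29 on hg38), was 2.68-fold higher in deleted cells in DMSO. It had 96.01, 93.7 and 97.9 CPM in deleted cells in doxorubicin, 119, 93.3 and 109 CPM in deleted cells in DMSO, 33.4, 37.8 and 37.4 CPM in intact cells in doxorubicin and 40.5, 42.2 and 37.6 CPM in intact cells in DMSO. All 6 deleted libraries stood above all 6 intact ones. The log2 fold change of deleted over intact cells was 1.42 ± 0.10, adjusted p = 2.6e-07 in DMSO and 1.40 ± 0.10, adjusted p = 1.04e-07 in doxorubicin. Doxorubicin gave -0.16 ± 0.10 in deleted cells and -0.15 ± 0.10 in intact cells, neither past the threshold; the value in deleted cells was -0.27 (adjusted p = 0.0347) when deleted DMSO replicate 2 was left out. Of the exon bases of LAMA1, 11.1% are shared with antisense transcripts, and the strand setting of the counting is not given in the sources used here, so reads of such partners cannot be told apart from its own.

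LAMA3, the alpha chain of the laminin of epithelial anchoring sites, was lower in deleted cells in DMSO and rose with doxorubicin. Its libraries had 13.1, 12.7 and 14.9 CPM in treated deleted cells, 7.02, 7.93 and 7.44 CPM in deleted cells in DMSO, 10.5, 10.3 and 11.7 CPM in treated intact cells and 9.46, 11.2 and 9.47 CPM in intact cells in DMSO. The deleted DMSO libraries were the lowest of the 12 and the treated deleted ones the highest, with no overlap with their comparison groups. In edgeR's fit the log2 fold change was -0.43 ± 0.12, adjusted p = 0.011 for deletion in DMSO and 0.86 ± 0.12, adjusted p = 7.42e-05 for doxorubicin in deleted cells. In treated cells, deleted over intact, it was 0.32 ± 0.11, adjusted p = 0.0323, a call that was lost without any 1 of 6 libraries (all 3 treated deleted, treated intact replicates 1 and 2, and intact DMSO replicate 2), with adjusted p of 0.0563 to 0.229.

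LAMA4, the alpha chain of vascular and mesenchymal laminins, moved the other way with 1 µM doxorubicin. It had 3.66, 3.002 and 3.79 CPM in treated deleted cells and 8.39, 7.95 and 8.69 CPM in deleted cells in DMSO. Every treated deleted library was below every other library of the series, and the change was -1.26 ± 0.13, adjusted p = 4.22e-06 on the log2 scale, a 2.40-fold decrease. In intact cells LAMA4 had 6.34, 5.56 and 6.35 CPM in doxorubicin and 6.71, 6.48 and 7.11 CPM in DMSO, a log2 fold change of -0.15 ± 0.12, adjusted p = 0.666.

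LAMA5, the most widespread adult alpha chain, and LAMA2, that of muscle laminin, gave less certain results. LAMA5 had 125, 116 and 124 CPM in treated deleted cells, 115, 48.6 and 117 CPM in deleted cells in DMSO, 43.5, 70.03 and 59.4 CPM in treated intact cells and 69.1, 73.4 and 59.6 CPM in intact cells in DMSO. Replicate 2 of the deleted DMSO group, at 48.6 CPM, was far below the others of its group and below the intact libraries in DMSO. The log2 fold change was 1.08 ± 0.26, adjusted p = 0.00356 between treated genotypes and 0.48 ± 0.26, adjusted p = 0.172 in DMSO, where it was 0.77 (adjusted p = 0.000985) without that replicate. LAMA2 averaged 5.11 ± 1.15 CPM in deleted cells and 3.57 ± 0.292 CPM in intact cells in DMSO (SD, n = 3 each), with groups that overlapped. Its call there (0.52 ± 0.19, adjusted p = 0.0447) was lost without any 1 of 9 libraries (all 3 treated deleted, all 3 intact DMSO, deleted DMSO replicates 2 and 3, and treated intact replicate 1), with adjusted p of 0.0659 to 0.171, and in 20 of 24 alternatives in all.

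The beta chains differed from one another in doxorubicin. LAMB1, the beta chain of most mesenchymal laminins (chr7:107923799-108003255), had 75.4, 76.6 and 75.3 CPM in treated deleted cells and 162, 167 and 159 CPM in deleted cells in DMSO. Intact cells had 183, 177 and 192 CPM in doxorubicin and 189.6, 199 and 181 CPM in DMSO. Treated deleted libraries were the lowest by far, and the log2 fold change with doxorubicin was -1.10 ± 0.07, adjusted p = 1e-07 in deleted cells and -0.05 ± 0.07, adjusted p = 0.857 in intact cells. The difference of these effects was -1.06 ± 0.10, adjusted p = 1.07e-05. In DMSO the deletion value was small, -0.22 ± 0.07, adjusted p = 0.0311, and was not called without any 1 of 4 libraries (deleted DMSO replicates 1 and 3, intact DMSO replicates 1 and 2; adjusted p of 0.0649 to 0.0901).

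LAMB3, the partner of LAMA3 in epithelial laminin, had 277, 269 and 273 CPM in treated deleted cells and 206, 135 and 209 CPM in deleted cells in DMSO. Intact cells had 107, 145 and 131 CPM in doxorubicin and 172, 162 and 164 CPM in DMSO. Libraries of treated deleted cells were the highest of the 12, and the treated intact ones lay below their DMSO libraries. The log2 fold change with doxorubicin was 0.57 ± 0.15, adjusted p = 0.00933 in deleted cells and -0.38 ± 0.15, adjusted p = 0.356 in intact cells, and the effects differed by 0.95 ± 0.21, adjusted p = 0.00646. In DMSO the deletion effect was 0.15 ± 0.15, adjusted p = 0.489, and with deleted DMSO replicate 2, the lowest of its group, left out, it was 0.30 (adjusted p = 0.0421). LAMB2, the beta chain of synaptic and kidney laminins, passed in no comparison in the fit of all libraries, and its log2 fold change in DMSO had a 95% interval of -0.01 to 0.44; without the same replicate it was 0.34 (adjusted p = 0.00681) in DMSO and, between treated genotypes, 0.19 (adjusted p = 0.0459).

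LAMC1, the gamma chain shared by most laminins, was the laminin gene with the most counts. It had 385, 392 and 401 CPM in treated deleted cells, 322, 346 and 295 CPM in deleted cells in DMSO, 481, 393 and 456 CPM in treated intact cells and 425, 437 and 402 CPM in intact cells in DMSO. The deleted DMSO libraries were below all 9 others. On the log2 scale the change was -0.39 ± 0.09, adjusted p = 0.00479 for deletion in DMSO and 0.29 ± 0.09, adjusted p = 0.0288 for doxorubicin in deleted cells, and the second call was lost without any treated deleted library or without replicate 1 or 3 of the deleted DMSO group (adjusted p of 0.0668 to 0.116). Between treated genotypes it was -0.17 ± 0.09, adjusted p = 0.138, and -0.29 (adjusted p = 0.00744) without treated intact replicate 2 and -0.20 (adjusted p = 0.0474) without deleted DMSO replicate 2.

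Outside the 38 genes, LAMC3, a gamma chain of low abundance, had 12.1, 14.6 and 13.7 CPM in treated deleted cells and 1.29, 0.774 and 0.960 CPM in deleted cells in DMSO. This was a 13.4-fold increase (3.75 ± 0.22, adjusted p = 2.43e-08) with no overlap, while intact cells had 1.13, 1.64 and 1.84 CPM in doxorubicin and 2.06, 1.73 and 1.73 CPM in DMSO. LAMB4 averaged at most 0.127 CPM in any group.

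**Figure D2:**
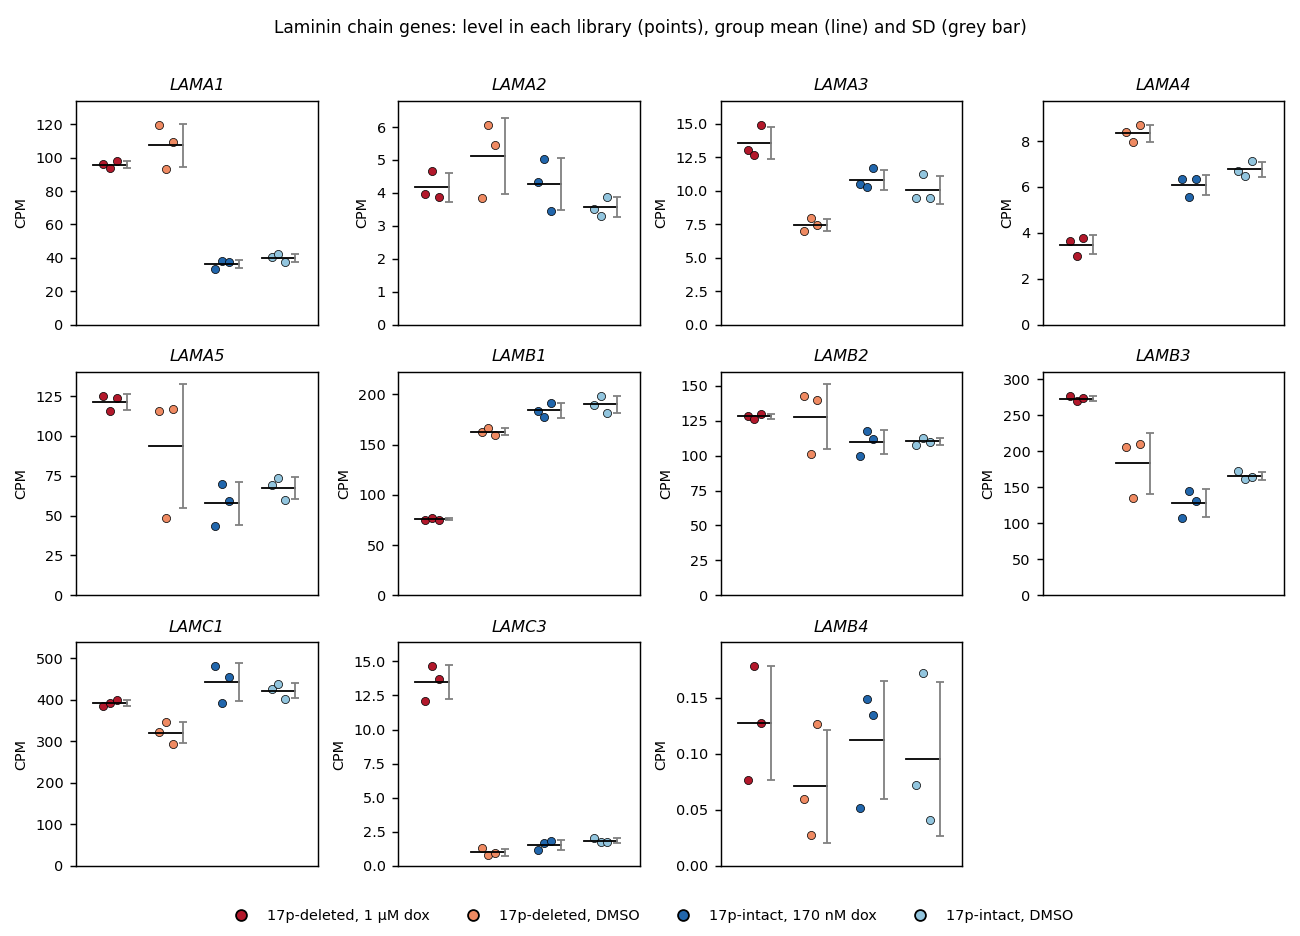
Levels of 11 laminin chain genes in CPM (y axis, linear from 0) in the 4 groups, with 3 libraries a group as points, the mean as a line and the SD as a grey bar. The treated deleted libraries are highest for LAMA3, LAMB3 and LAMC3 and lowest for LAMA4 and LAMB1, and LAMA1 separates the genotypes in both treatments.

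Nidogens and perlecan link laminin to collagen IV. NID2, nidogen-2 (chr14:52004803-52069228, minus strand), had rank 2 by p among all 21803 genes in the DMSO comparison of genotypes. It had 10.7, 9.47 and 10.7 CPM in treated deleted cells, 8.15, 8.88 and 7.12 CPM in deleted cells in DMSO, 80.9, 80.0 and 82.9 CPM in treated intact cells and 84.0, 88.2 and 84.8 CPM in intact cells in DMSO. The 6 deleted libraries lay far below the 6 intact ones, with no overlap. This was a 10.6-fold decrease in DMSO (-3.41 ± 0.10, adjusted p = 2.83e-10) and a 7.88-fold decrease between treated groups (-2.98 ± 0.10, adjusted p = 1.28e-10). The rise with 1 µM doxorubicin, 0.36 ± 0.10, adjusted p = 0.0126, was lost without treated deleted replicate 1 or 3 or deleted DMSO replicate 3 (adjusted p of 0.0567 to 0.0654). RTRAF on the other strand shares 29.96% of the exon bases of NID2, which the deposited counts may hold in both genes.

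NID1, nidogen-1, was the linker with the most counts, and it was lowest in treated deleted cells. It had 221, 219 and 231 CPM in treated deleted cells, 275, 305 and 257 CPM in deleted cells in DMSO, 301, 245 and 285 CPM in treated intact cells and 267, 268 and 266 CPM in intact cells in DMSO. In edgeR's fit the log2 fold change was 0.06 ± 0.09, adjusted p = 0.644 for deletion in DMSO and -0.32 ± 0.09, adjusted p = 0.0175 for doxorubicin in deleted cells, and the second was not called without treated deleted replicate 1 or 2 (adjusted p of 0.0606 and 0.0644). The 95% interval of the deletion effect in DMSO was -0.12 to 0.24. Between treated genotypes NID1 was lower by -0.31 ± 0.09, adjusted p = 0.0131, with no overlap. The difference of doxorubicin effects, -0.37 ± 0.13, adjusted p = 0.0679, passed without treated intact replicate 2 (-0.45, adjusted p = 0.00803), without deleted DMSO replicate 3 (-0.43, adjusted p = 0.0486) and with the GC trend removed (-0.39, adjusted p = 0.0447).

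HSPG2, which encodes perlecan, had 127, 107 and 129 CPM in treated deleted cells and 110.1, 53.0 and 90.9 CPM in deleted cells in DMSO. Intact cells had 47.0, 61.4 and 62.0 CPM in doxorubicin and 66.5, 73.0 and 49.98 CPM in DMSO. The treated groups did not overlap (1.09 ± 0.22, adjusted p = 0.00103). In DMSO the groups overlapped through replicate 2 of the deleted group, at 53.0 CPM (0.42 ± 0.22, adjusted p = 0.154), and without that library the value was 0.65 (adjusted p = 0.00471). The change with 1 µM doxorubicin was 0.52 ± 0.22, adjusted p = 0.091, and without replicate 1 of the deleted DMSO group it was 0.75 (adjusted p = 0.0247). An antisense gene shares 11.7% of its exon bases.

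**Figure D3:**
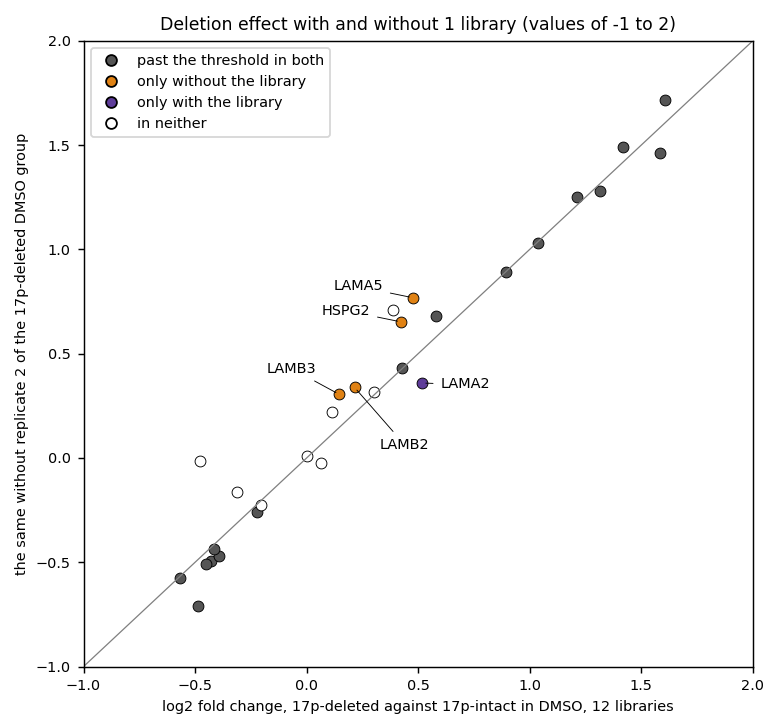
Log2 fold changes of deleted over intact cells in DMSO from all 12 libraries (x axis) and without replicate 2 of the deleted DMSO group (y axis), for members between -1 and 2, with the line of equality. Of these 2 fits, LAMA5, HSPG2, LAMB2 and LAMB3 passed the threshold in the one without the library and LAMA2 in the one with it.

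Replicate 2 of the deleted DMSO group, the library with 6.90% mitochondrial counts, also departed from its group by transcript GC content, with a Spearman rho of -0.50 between the deviations of tested genes and their GC content. Replicate 1 of the treated intact group had a rho of -0.44, and replicate 2 of that group 0.45. The part of these properties in the values of single genes was not tested. With the GC trend removed, 14 members were higher and 11 lower in DMSO, where LAMA5, HSPG2, LAMB2, LAMB3 and LTBP3 now passed and LAMA2 did not. Over all genes tested, 4667 were then higher and 4321 lower in DMSO, against 4092 and 3526 without the removal. With doxorubicin in deleted cells 11 members were lower, and HSPG2 now passed as higher (0.39, adjusted p = 0.0393). All genes called there numbered 4352 higher and 3779 lower, against 3822 and 2862.

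Of the 14 elastic fibre and microfibril genes, 7 were higher and 1, FBLN2, lower in deleted cells in DMSO, where 18.8% of all genes tested were called higher and 16.2% lower. Between treated genotypes 9 were higher and 1, MFAP2, lower, against 25.9% and 21.9% of all genes tested. No test of the group as a whole was made. FBN1 and FBN2 encode the fibrillins that build microfibrils. FBN1 had 230.3, 218 and 231 CPM in treated deleted cells, 288, 258 and 245 CPM in deleted cells in DMSO, 160.2, 122 and 171 CPM in treated intact cells and 144, 163 and 119 CPM in intact cells in DMSO. For FBN2 (chr5:128257909-128659185) the libraries held 190.4, 184 and 194 CPM in treated deleted cells, 275, 219 and 220.2 CPM in deleted cells in DMSO, 106, 89.9 and 106 CPM in treated intact cells and 106, 118 and 84.0 CPM in intact cells in DMSO. All deleted libraries were above all intact ones for both genes. The deletion effect in DMSO was 0.89 ± 0.13, adjusted p = 0.000175 for FBN1 and 1.21 ± 0.13, adjusted p = 9.82e-06 for FBN2. Doxorubicin gave no call for either gene, and in deleted cells FBN2 had -0.33 ± 0.13, adjusted p = 0.0688, which was -0.40 (adjusted p = 0.0281) without deleted DMSO replicate 2 and -0.33 without treated intact replicate 2 (adjusted p = 0.0459) or intact DMSO replicate 3 (adjusted p = 0.0429).

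LTBP genes encode proteins that hold latent TGF-beta in the matrix. LTBP2, the family member that does not bind latent TGF-beta, had 149, 142 and 159 CPM in treated deleted cells, 147, 103.2 and 129 CPM in deleted cells in DMSO, 34.8, 35.1 and 39.2 CPM in treated intact cells and 42.8, 43.4 and 38.2 CPM in intact cells in DMSO. No deleted library reached down to the intact range. It was 3.05-fold higher in DMSO (1.61 ± 0.12, adjusted p = 4.2e-07) and 4.13-fold higher between treated groups (2.05 ± 0.12, adjusted p = 1.67e-08). The change of LTBP2 with 1 µM doxorubicin was 0.25 ± 0.12, adjusted p = 0.129. Without deleted DMSO replicate 1 it was 0.37 (adjusted p = 0.0378), and the difference of effects 0.56 (adjusted p = 0.0332).

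LTBP3 had 146, 163 and 162 CPM in treated deleted cells and 108, 83.4 and 115 CPM in deleted cells in DMSO. Intact cells had 85.6, 106 and 84.5 CPM in doxorubicin and 84.9, 101.9 and 96.7 CPM in DMSO. Libraries of treated deleted cells were above all others, while the deleted DMSO libraries overlapped the intact ones. The doxorubicin effect was 0.62 ± 0.13, adjusted p = 0.00214 in deleted cells. Its difference from that in intact cells, 0.66 ± 0.18, adjusted p = 0.0226, was not called without any 1 of 6 libraries (treated deleted replicates 2 and 3, treated intact replicates 1 and 3, intact DMSO replicates 2 and 3; adjusted p of 0.0514 to 0.0694). With the GC trend removed this difference was 0.33 (adjusted p = 0.103), and 0.32 (adjusted p = 0.127) with the replicate block as well. LTBP1 was higher with deletion in DMSO (0.43 ± 0.10, adjusted p = 0.00576; 0.33, adjusted p = 0.067, without intact DMSO replicate 2) and lower with doxorubicin in deleted cells (-0.38 ± 0.10, adjusted p = 0.0128), a call lost without treated deleted replicate 1 or deleted DMSO replicate 1 (adjusted p of 0.0698 and 0.0637).

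Fibulins are glycoproteins that bridge microfibrils, elastin and cells, and they split. EFEMP1, fibulin-3, had 65.5, 60.7 and 62.3 CPM in treated deleted cells, 128, 155 and 127 CPM in deleted cells in DMSO, 44.2, 43.2 and 40.3 CPM in treated intact cells and 47.0, 43.0 and 47.2 CPM in intact cells in DMSO. The deleted DMSO libraries were the highest, and the treated deleted ones lay between them and the intact ones without overlap. Deletion in DMSO gave 1.58 ± 0.10, adjusted p = 6.98e-08, and doxorubicin in deleted cells gave -1.12 ± 0.10, adjusted p = 9.32e-07. The doxorubicin effect in intact cells was -0.10 ± 0.09, adjusted p = 0.714, and the effects differed by -1.02 ± 0.13, adjusted p = 0.000126.

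FBLN5, a fibulin needed for elastic fibre assembly, had 25.8, 23.4 and 28.0 CPM in treated deleted cells, 26.6, 25.8 and 23.5 CPM in deleted cells in DMSO, 11.7, 11.6 and 10.8 CPM in treated intact cells and 10.7, 9.33 and 10.4 CPM in intact cells in DMSO. Its deleted libraries were all above its intact ones, by 1.32 ± 0.10, adjusted p = 7.59e-07 in DMSO, and doxorubicin gave 0.03 ± 0.10 in deleted cells. FBLN1 did not differ past the threshold in any comparison, with 86.7 to 89.6 CPM in treated deleted cells, 82.7 to 88.0 CPM in deleted cells in DMSO, 82.3 to 94.1 CPM in treated intact cells and 82.8 to 90.5 CPM in intact cells in DMSO, and the 95% interval of its deletion effect in DMSO was -0.16 to 0.16.

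FBLN2, fibulin-2, was rare in every group but changed more with 1 µM doxorubicin than any other elastic fibre gene tested. It had 132, 174 and 161 counts in treated deleted cells, 5, 20 and 18 in deleted cells in DMSO, 68, 52 and 52 in treated intact cells and 51, 54 and 100 in intact cells in DMSO. These counts were 1.69, 1.82 and 1.71 CPM in treated deleted cells, 0.0740, 0.271 and 0.227 CPM in deleted cells in DMSO, 0.882, 0.646 and 0.540 CPM in treated intact cells and 0.731, 0.774 and 1.02 CPM in intact cells in DMSO. The deleted DMSO libraries were the lowest and the treated deleted ones the highest. The log2 fold change was -2.12 ± 0.36, adjusted p = 0.000458 for deletion in DMSO, 3.16 ± 0.35, adjusted p = 1.3e-05 for doxorubicin in deleted cells and 1.34 ± 0.31, adjusted p = 0.00276 between treated genotypes.

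Of the other elastic fibre genes, EFEMP2, fibulin-4, was higher in deleted than intact cells in DMSO (0.58 ± 0.14, adjusted p = 0.0048). It was also higher between treated groups, whose doses differed (0.39 ± 0.14, adjusted p = 0.0294). The second call was lost without any 1 of 6 libraries (all 3 treated deleted, treated intact replicates 1 and 3, and intact DMSO replicate 2), with adjusted p of 0.0662 to 0.189. Its change with 1 µM doxorubicin was -0.26 ± 0.14, and -0.39 (adjusted p = 0.0265) without deleted DMSO replicate 2. EMILIN1, an elastin-interface glycoprotein, was higher between treated genotypes (1.02 ± 0.36, adjusted p = 0.0315), but not without any treated deleted library or treated intact replicate 1 (adjusted p of 0.0572 to 0.133). MFAP2, a microfibril component, was lower there (-0.40 ± 0.12, adjusted p = 0.0106), and without treated intact replicate 2 it also passed in DMSO (-0.24, adjusted p = 0.0448) and with doxorubicin in deleted cells (-0.25, adjusted p = 0.0409). ELN had 74 counts and MFAP5 4 counts over the 12 libraries, and neither was tested.

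**Figure D4:**
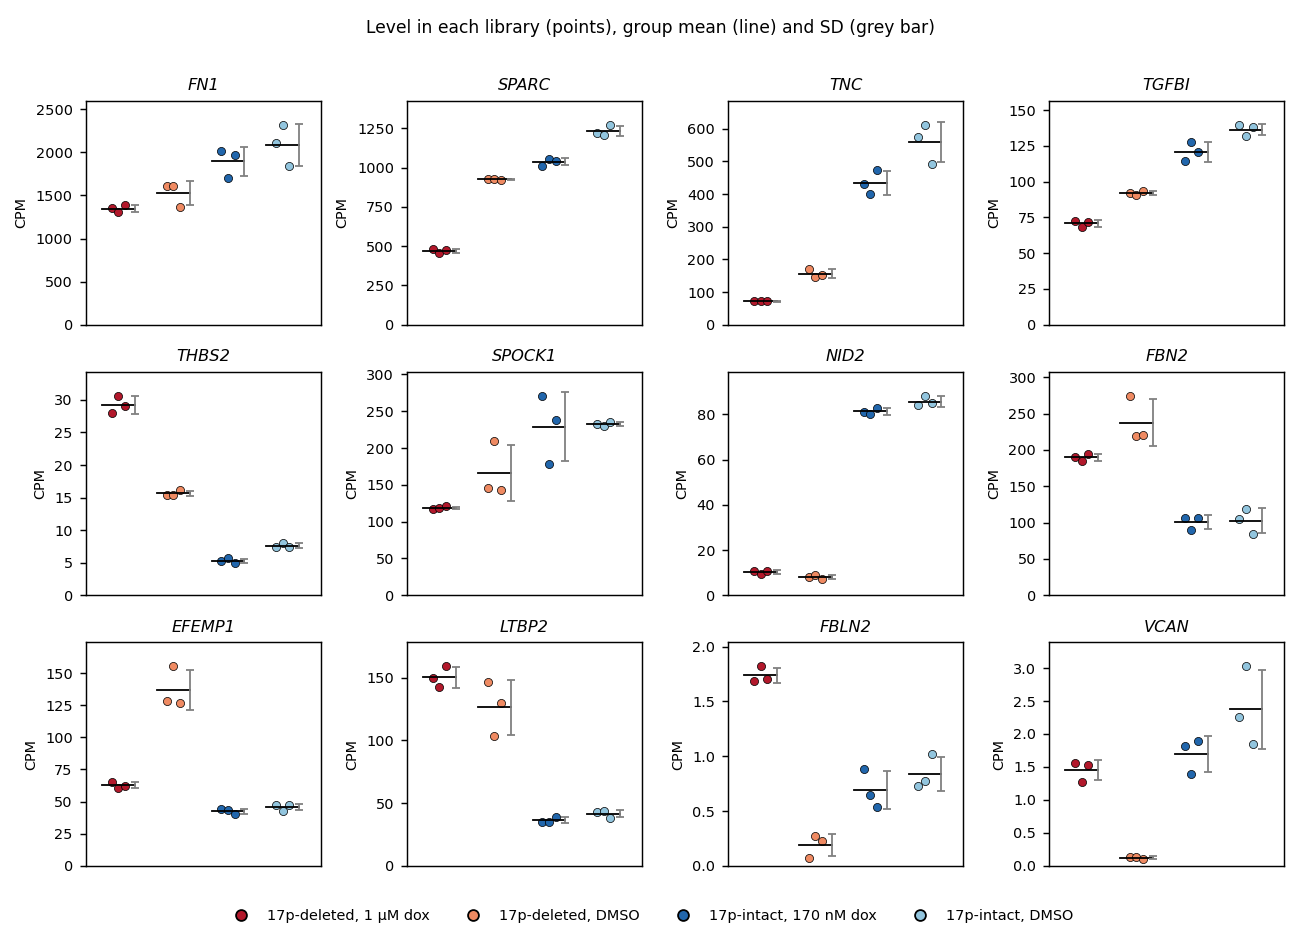
Levels in CPM (y axis, linear from 0) of 12 matrix genes in the 4 groups, with 3 libraries a group as points, the mean as a line and the SD as a grey bar. NID2 and TNC are low in all deleted libraries, LTBP2 and FBN2 are high in them, and FBLN2 and VCAN are near 0 in the deleted DMSO libraries only.

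The 5 genes of the proteoglycan role were mostly scarce, with perlecan (HSPG2), also a proteoglycan, counted among the linkers. VCAN, which encodes the large hyaluronan-binding proteoglycan versican (chr5:83471465-83582303), had 122, 122 and 144 counts in treated deleted cells, 9, 10 and 8 in deleted cells in DMSO, 140, 112 and 182 in treated intact cells and 157, 211 and 182 in intact cells in DMSO. In CPM the values were 1.56, 1.28 and 1.53 in treated deleted cells, 0.133, 0.136 and 0.101 in deleted cells in DMSO, 1.82, 1.39 and 1.89 in treated intact cells and 2.25, 3.03 and 1.85 in intact cells in DMSO. The deleted DMSO libraries stood apart from all 9 others. On the log2 scale the change was -4.25 ± 0.28, adjusted p = 1.27e-07 for deletion in DMSO and 3.55 ± 0.28, adjusted p = 4.6e-07 for doxorubicin in deleted cells, both measured against the same deleted DMSO libraries. Between treated genotypes it was -0.23 ± 0.22, adjusted p = 0.416, with a 95% interval of -0.65 to 0.20, and in intact cells doxorubicin gave -0.48 ± 0.21, adjusted p = 0.414.

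SPOCK1, a testican proteoglycan, was the only gene of the proteoglycan role that averaged above 3 CPM in any group. It had 117, 118 and 121 CPM in treated deleted cells, 146, 209.7 and 142 CPM in deleted cells in DMSO, 271, 179 and 238 CPM in treated intact cells and 232, 229.9 and 235 CPM in intact cells in DMSO. The treated deleted libraries were the lowest of the 12. The log2 fold change of deleted over intact cells was -0.95 ± 0.16, adjusted p = 0.000194 between treated groups, whose doses differed. In DMSO it was -0.49 ± 0.15, adjusted p = 0.0254. The DMSO call was lost without deleted DMSO replicate 1 or 3 or intact DMSO replicate 1 or 3 (adjusted p of 0.0636 to 0.098). The fall with doxorubicin in deleted cells, -0.48 ± 0.15, adjusted p = 0.0295, was not called without any treated deleted library or deleted DMSO replicate 2 (adjusted p of 0.0728 to 0.091), and without treated intact replicate 2 the difference of effects was -0.61 (adjusted p = 0.0258). DCN, decorin, had 164 counts in all and passed in no comparison in edgeR's fit. Its value between treated genotypes, -1.69 (adjusted p = 0.104), passed with no filter on low counts (-1.74, adjusted p = 0.0398), in limma-voom (-2.29, adjusted p = 0.0224) and without treated deleted replicate 2, which held 19 of the 23 counts of its group (-3.51, adjusted p = 0.00858). LUM, lumican, had 20 counts and BGN, biglycan, 50, and neither was tested.

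The 7 adhesive and matricellular genes took a larger share of the counts than any other role in each group, at 0.205% in treated deleted cells, 0.272% in deleted cells in DMSO, 0.338% in treated intact cells and 0.411% in intact cells in DMSO. FN1, fibronectin (chr2:215360440-215436172), had 1349.7, 1309 and 1385 CPM in treated deleted cells, 1605, 1609.9 and 1365 CPM in deleted cells in DMSO, 2013, 1704 and 1969.7 CPM in treated intact cells and 2107, 2315 and 1838 CPM in intact cells in DMSO. Deleted libraries lay below intact ones in both treatments. The log2 fold change of deleted over intact cells was -0.45 ± 0.11, adjusted p = 0.00449 in DMSO. Between treated groups, whose doses differed, it was -0.49 ± 0.11, adjusted p = 0.00158. Doxorubicin gave -0.18 ± 0.10 in deleted cells (95% interval -0.39 to 0.03) and -0.14 ± 0.10 in intact cells (-0.34 to 0.07), without passing.

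TNC, tenascin-C, an anti-adhesive glycoprotein of tumour stroma, was lower in deleted cells in both treatments. It had 71.4, 71.3 and 73.9 CPM in treated deleted cells, 171, 147 and 151 CPM in deleted cells in DMSO, 432, 399 and 473 CPM in treated intact cells and 575, 611 and 493 CPM in intact cells in DMSO. The 4 groups did not overlap. TNC was 3.58-fold lower with deletion in DMSO (-1.84 ± 0.10, adjusted p = 2.92e-08) and 6.02-fold lower between treated groups (-2.59 ± 0.11, adjusted p = 5.38e-10). Doxorubicin gave -1.12 ± 0.10, adjusted p = 1.65e-06 in deleted cells and -0.36 ± 0.10, adjusted p = 0.182 in intact cells, and DESeq2 called the intact value.

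SPARC, a collagen-binding matricellular protein, followed the same order of groups. It had 480.4, 456 and 473 CPM in treated deleted cells, 927, 930.3 and 919.7 CPM in deleted cells in DMSO, 1013, 1057 and 1041 CPM in treated intact cells and 1222, 1209 and 1271 CPM in intact cells in DMSO, again without overlap. Deletion gave -0.41 ± 0.07, adjusted p = 0.000479 in DMSO, and doxorubicin gave -0.98 ± 0.07, adjusted p = 2.04e-07 in deleted cells and -0.25 ± 0.07, adjusted p = 0.19 in intact cells. The doxorubicin effects differed by -0.73 ± 0.10, adjusted p = 0.000179. Antisense transcripts share 7.89% of the exon bases of SPARC.

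THBS2, thrombospondin-2, was higher in deleted cells, where TNC and SPARC were lower. It had 28.0, 30.6 and 29.1 CPM in treated deleted cells, 15.4, 15.4 and 16.1 CPM in deleted cells in DMSO, 5.22, 5.65 and 4.94 CPM in treated intact cells and 7.34, 8.04 and 7.47 CPM in intact cells in DMSO. The groups did not overlap, and within intact cells the treated libraries were the lower ones. In edgeR's fit the log2 fold change was 1.04 ± 0.10, adjusted p = 3.1e-06 for deletion in DMSO and 0.90 ± 0.10, adjusted p = 7.39e-06 for doxorubicin in deleted cells. In intact cells it was -0.53 ± 0.10, adjusted p = 0.0629, and past the threshold without treated intact replicate 2 (-0.58, adjusted p = 0.0346) or deleted DMSO replicate 2 (-0.54, adjusted p = 0.019). The effects differed by 1.43 ± 0.14, adjusted p = 7.98e-06.

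TGFBI, an integrin ligand induced by TGF-beta, had 72.6, 68.4 and 71.6 CPM in treated deleted cells, 91.8, 90.6 and 93.8 CPM in deleted cells in DMSO, 114, 128 and 120.4 CPM in treated intact cells and 139, 132 and 138 CPM in intact cells in DMSO. The order of groups was that of TNC and SPARC, without overlap. Deletion gave -0.57 ± 0.08, adjusted p = 6.78e-05 in DMSO, and doxorubicin gave -0.38 ± 0.08, adjusted p = 0.00182 in deleted cells and -0.18 ± 0.08, adjusted p = 0.403 in intact cells. PCOLCE, an enhancer of procollagen processing, passed in no comparison in edgeR's fit of the 12 libraries. Without deleted DMSO replicate 3 its deletion effect in DMSO was -0.48 (adjusted p = 0.0352). Between treated genotypes it was -0.31 (adjusted p = 0.116), and it passed with the GC trend removed (-0.50, adjusted p = 0.00221), with only the groups compared (-0.35, adjusted p = 0.0438) and without deleted DMSO replicate 2 (-0.34, adjusted p = 0.0209). An antisense transcript shares 16.6% of its exon bases. POSTN, periostin, had 30 counts and was not tested.

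Per kilobase of exon, SPARC was the highest member in every group, at 97.3 CPM per kb in treated deleted cells, 192 in deleted cells in DMSO, 215 in treated intact cells and 255 in intact cells in DMSO. FN1 was next in all 4, at 77.8 CPM per kb in treated deleted cells, 88.2 in deleted cells in DMSO, 109 in treated intact cells and 121 in intact cells in DMSO. TNC was at 7.49 CPM per kb in treated deleted cells and 58.1 in intact cells in DMSO, where it came next after FN1. In treated deleted cells LAMB3 came next, at 58.3 CPM per kb. The 38 genes together took 0.469% ± 0.00816 of the counts in treated deleted cells, 0.537% ± 0.0387 in deleted cells in DMSO, 0.554% ± 0.0208 in treated intact cells and 0.643% ± 0.0385 in intact cells in DMSO (SD, n = 3 each).

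**Figure D5:**
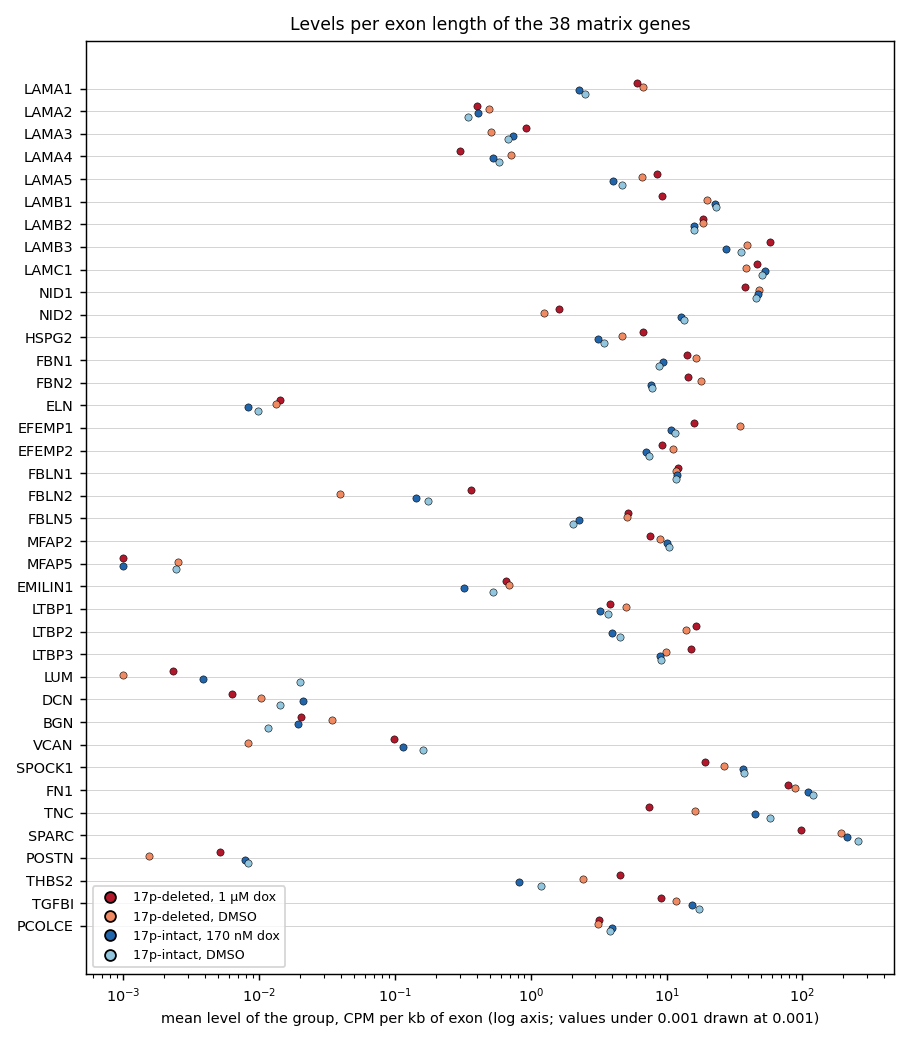
Mean level of each of the 38 genes in CPM per kilobase of exon (log axis) in the 4 groups, by role. SPARC and FN1 lead in every group, and ELN, MFAP5, LUM, DCN, BGN and POSTN lie below 0.1 CPM per kb in all of them; values of 0 are drawn at the left end.

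Of 27 receptor genes of this matrix, 5 were higher and 6 lower with deletion in DMSO (18.5% and 22.2% of the list, against 18.8% and 16.2% of all genes tested). With doxorubicin in deleted cells 8 were higher and 6 lower (29.6% and 22.2%, against 17.5% and 13.1%), and between treated genotypes 10 were higher and 8 lower (37% and 29.6%, against 25.9% and 21.9%). ITGA4, the alpha chain of a fibronectin receptor, had 7.50, 7.63 and 8.63 CPM in treated deleted cells, 21.0, 25.1 and 19.5 CPM in deleted cells in DMSO, 79.6, 57.8 and 83.6 CPM in treated intact cells and 84.7, 76.4 and 78.7 CPM in intact cells in DMSO. Both deleted groups lay below both intact groups. It was lower with deletion in DMSO (-1.87 ± 0.14, adjusted p = 4.4e-07) and with doxorubicin in deleted cells (-1.46 ± 0.14, adjusted p = 3.26e-06). BCAM, a receptor of LAMA5, was higher with deletion in DMSO (1.23 ± 0.09, adjusted p = 4.44e-07). SDC4, a fibronectin-binding syndecan, had -0.72 ± 0.09, adjusted p = 5.81e-05 for deletion in DMSO and 1.16 ± 0.10, adjusted p = 6.55e-07 for doxorubicin in deleted cells. CD44, the receptor with the most counts that passed in no comparison, had a 95% interval of -0.07 to 0.28 for deletion in DMSO.

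Crosslinking and assembly enzymes, 16 in all, had 3 higher and 5 lower members with deletion in DMSO (18.8% and 31.2% of the list, against 18.8% and 16.2% of all genes tested). With doxorubicin in deleted cells 5 were higher and 6 lower (31.2% and 37.5%, against 17.5% and 13.1%). LOX, which crosslinks collagen and elastin, had 4.02, 3.79 and 4.41 CPM in treated deleted cells, 13.2, 18.4 and 12.9 CPM in deleted cells in DMSO, 23.5, 17.0 and 21.9 CPM in treated intact cells and 32.7, 29.4 and 30.7 CPM in intact cells in DMSO. Treated deleted libraries were lowest and the intact DMSO libraries highest, with -1.06 ± 0.15, adjusted p = 0.00012 for deletion in DMSO and -1.87 ± 0.16, adjusted p = 9.32e-07 for doxorubicin in deleted cells. LOXL2, a related oxidase, also fell, with deletion in DMSO (-0.92 ± 0.10) and with doxorubicin in deleted cells (-0.73 ± 0.10), and P4HA2, a collagen prolyl hydroxylase, rose with doxorubicin (0.87 ± 0.08). PLOD2, a collagen lysyl hydroxylase, did not pass in DMSO (95% interval -0.11 to 0.55).

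Of 18 further matrix glycoproteins, 12 were tested, and 3 were higher and 3 lower with deletion in DMSO. That was 16.7% of all 18 in each direction, untested genes included, where 18.8% and 16.2% of all genes tested were called. CCN2, a matricellular protein, had 332, 342 and 351 CPM in treated deleted cells, 262, 312 and 288 CPM in deleted cells in DMSO, 85.4, 69.4 and 65.2 CPM in treated intact cells and 89.4, 93.6 and 99.9 CPM in intact cells in DMSO, a deletion effect of 1.61 ± 0.11, adjusted p = 1.56e-07 in DMSO. THBS1, thrombospondin-1, had 140.2, 137 and 142 CPM in treated deleted cells, 227, 225 and 228 CPM in deleted cells in DMSO, 290.0, 265 and 309.8 CPM in treated intact cells and 419, 421 and 406 CPM in intact cells in DMSO. Its groups did not overlap. It was the 1 gene of these lists that passed in intact cells with 170 nM doxorubicin (-0.53 ± 0.08, adjusted p = 0.0368), and it also fell with 1 µM in deleted cells (-0.70 ± 0.08, adjusted p = 1.15e-05), opposite to THBS2 there.

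The summed level of the 7 mesenchymal markers, most of it VIM, was 1243 to 1283 CPM in treated deleted cells, 2143 to 2502 CPM in deleted cells in DMSO, 2397 to 2704 CPM in treated intact cells and 2920 to 2999 CPM in intact cells in DMSO. The 10 epithelial markers summed to 574 to 579 CPM in treated deleted cells, 479 to 635 CPM in deleted cells in DMSO, 406 to 584 CPM in treated intact cells and 502 to 525 CPM in intact cells in DMSO, with 5 or 6 of them under 1 CPM. With deletion in DMSO, 1 mesenchymal marker was higher (THY1) and 4 lower (VIM, PDGFRA, PDGFRB and S100A4), while 0 epithelial markers were higher and 3 lower (CDH1, KRT19 and KRT14). Of all genes tested, 18.8% were called higher and 16.2% lower there. With 1 µM doxorubicin in deleted cells, 0 mesenchymal markers were higher and 3 lower (VIM, CDH2 and THY1). In that comparison 4 epithelial markers were higher (KRT19, KRT5, KRT14 and GATA3) and 0 lower. The other 6 epithelial markers did not pass, and the summed epithelial levels of the compared groups overlapped. Of all genes tested, 17.5% were called higher and 13.1% lower in this comparison. The part of such markers in the matrix values was not tested.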

How the data were processed

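Total RNA of 12 libraries was sequenced as paired-end reads, per the labels' protocols. The authors deposited raw counts per gene. The submitters' processing notes name STAR 2.7.9a, featureCounts, Subread 2.0.1 and hg38. Which annotation release and which strand setting the counting used is not given in the sources used here. No pair of libraries in a group looked like a duplicate (chi-square per degree of freedom of 8.03 to 185).

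After filterByExpr and TMM scaling, edgeR 4.0.16 (R 4.3.3) fitted all 12 libraries with a mean per group, and its quasi-likelihood test gave p-values, adjusted by Benjamini-Hochberg over 21803 genes. Each SE came from the fold change and its F statistic, and 95% intervals rest on the SE by a normal approximation. They are therefore narrower than edgeR's test would give. For PCOLCE with deletion in DMSO the interval, -0.62 to -0.004, was wholly negative, while the unadjusted p of edgeR's test was 0.0676. CPM uses TMM-scaled totals, and log2 fold changes are deleted over intact or doxorubicin over DMSO. Alternatives were other scalings and filters, DESeq2 1.42.0, limma-voom 3.58.1, only the groups compared, a 2-fold threshold, GC trend removal by loess (span 0.5), a replicate block, leaving out the 10 most abundant genes, the 2 libraries of highest mitochondrial share, or each library. Exon lengths, positions and GC content came from GENCODE 29. The fit was tested on simulated counts, but the outcome is not given here and no statement rests on it.

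The members and lists were chosen with earlier results of these data known. The text names the most abundant member of each role, the up to 3 of lowest p per role and comparison, and every other member by values or calls. In each companion list it draws on those of lowest p and the most abundant that did not pass. Of the companion genes, 1 is not reported here.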

Additional observations from a re-analysis of the deposited data

Results flagged for a closer look

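For 12 members the doxorubicin effect differed between the genotypes by a test of the difference itself, the interaction in edgeR's quasi-likelihood fit with Benjamini-Hochberg adjustment over 21803 genes. The values are the log2 effect of 1 µM in deleted cells less that of 170 nM in intact cells, so dose and genotype cannot be told apart in them.

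The effect was more positive in deleted cells for VCAN (4.03, adjusted p = 3.86e-06), FBLN2 (3.46, adjusted p = 0.000181) and THBS2 (1.43, adjusted p = 7.98e-06). The same direction held for LAMB3 (0.95, adjusted p = 0.00646), LAMA3 (0.75, adjusted p = 0.0058), LTBP3 (0.66, adjusted p = 0.0226) and NID2 (0.43, adjusted p = 0.0419). The NID2 call was lost without any 1 of 9 libraries, the exceptions being treated deleted replicate 2, treated intact replicate 2 and deleted DMSO replicate 2, with adjusted p of 0.0668 to 0.101. That of LTBP3 was lost without any 1 of 6 libraries, treated deleted replicates 2 and 3, treated intact replicates 1 and 3 and intact DMSO replicates 2 and 3, with adjusted p of 0.0514 to 0.0694, and with the GC trend removed it was 0.33 (adjusted p = 0.103). The VCAN and FBLN2 values rest on 8 to 10 and 5 to 20 counts a library in deleted cells in DMSO.

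It was more negative in deleted cells for LAMA4 (-1.11, adjusted p = 0.000576), LAMB1 (-1.06, adjusted p = 1.07e-05), EFEMP1 (-1.02, adjusted p = 0.000126), TNC (-0.75, adjusted p = 0.00206) and SPARC (-0.73, adjusted p = 0.000179). All 5 were called lower with doxorubicin in deleted cells, and none passed in intact cells, where the treated libraries of LAMA4, TNC and SPARC lay below the DMSO ones.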

How the results depend on the processing

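No member changed direction among its calls in any alternative. Calls held in every alternative other than the 2-fold threshold for 17 of 21 members with deletion in DMSO, 12 of 17 with doxorubicin in deleted cells, 22 of 25 between treated genotypes and 10 of 12 for the difference of effects. A 2-fold threshold left 6 higher and 4 lower members with deletion in DMSO, 2 and 4 with doxorubicin in deleted cells, 9 and 4 between treated genotypes, and 3 and 3 for the difference. Over all 21803 genes tested it left 1243 higher and 1408 lower, 1984 and 937, 3111 and 1815, and 1497 and 487, in the same order. In intact cells with 170 nM doxorubicin, 1 member was lower instead of 0 (THBS2) under library totals, a filter of 1 CPM in 3 libraries, GC trend removal, the replicate block with GC trend removal and without the 2 libraries of highest mitochondrial share, and 3 were lower with DESeq2. Leaving out each library gave 8 to 13 higher and 9 to 12 lower members with deletion in DMSO, 6 to 9 and 6 to 11 with doxorubicin in deleted cells, 12 to 16 and 10 to 12 between treated genotypes, 5 to 7 and 5 to 7 for the difference, and 0 to 0 and 0 to 1 with doxorubicin in intact cells. Over all genes tested the ranges were 2910 to 4173 higher and 2817 to 4136 lower with deletion in DMSO. They were 3120 to 4169 and 2061 to 3354 with doxorubicin in deleted cells, and 4699 to 6067 and 4346 to 5682 between treated genotypes. For the difference they were 1767 to 2406 and 933 to 2190, and in intact cells 0 to 113 and 0 to 107. The cause of these changes was not tested.

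Replicate numbers did not pair the samples, since deviations of same-numbered libraries correlated by -0.09 to 0.06 in 12 pairs. The replicate block gave 9 higher and 9 lower members with deletion in DMSO and 7 and 8 with doxorubicin in deleted cells. It gave 13 and 10 between treated genotypes, 6 and 5 for the difference and 0 and 0 in intact cells. Over all genes tested the block gave 3549 higher and 3171 lower, 3473 and 2423, 5309 and 4379, 1867 and 1046, and 0 and 0, in the same order.

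Over all genes, the 13 calls of 170 nM doxorubicin in intact cells became 48 with library totals, 196 with no filter, 65 with the 1 CPM filter, 467 with DESeq2, 25 with limma-voom, 0 with only those groups or the block, 321 with GC trend removal, 152 with both and 195 without the 2 libraries; leaving out 1 library gave 0 to 220. Genes with a lower difference of effects numbered 2465 with GC trend removal, against 1470. With library totals, 14.6% of the calls in intact cells were higher, against 46.2%, and 71.3% of those of the difference, against 60.3%, where the median of all genes shifted by 0.11. Members near the floor (ELN, MFAP5, LUM, BGN, POSTN and DCN) are limited by depth.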
